A study of Drosophila melanogaster with 4 samples.

Results

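Isolated H3K23ac regions are short enriched regions that stand alone, with no other enriched region within 5 kb on either side. They were taken from the list that combines the replicates of a ChIP-seq series (chromatin immunoprecipitation and sequencing) of Drosophila melanogaster heads. A region was taken if it was under 10 kb wide, lay on 2L, 2R, 3L, 3R, X or chromosome 4, and had gaps of at least 5 kb to the regions before and after it. The first and last region of each arm were left out. Of the 16244 regions of the combined list, 1109 met this rule, 6.83%, and they held 4.15% of the enriched bases on these arms. Wild-type flies of the strain Oregon-R, given as mixed adult, were the source of all samples, and the labels do not state sex or whether the replicates were separate collections. Head nuclei were used, so signal from neurons, glia, eye and fat tissue is mixed in each sample. The series had 2 ChIP samples and 2 inputs (unenriched chromatin); the region lists of ChIP replicates 1 and 2 and the combined list were analysed. The sources used here give no read depth.

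H3K23ac is an acetyl group on lysine 23 of the tail of histone H3. Histone acetyltransferases add such groups, deacetylases remove them, and bromodomain proteins bind them. Acetylation lowers the positive charge of the tail and is typical of active chromatin. In flies as in mammals, active genes often lie in clusters that carry histone acetylation over many kilobases, while punctate acetylation away from such clusters is known from single promoters and from enhancers. Which genes or enhancers lie at the isolated regions was not examined, as no annotation of the files' genome build was used.

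The regions were chosen by their width and gaps in the combined list, so these values only describe them. Their widths ran from 1001 to 9887 bp with a median of 1499 bp. The 14387 other regions under 10 kb, the comparison used throughout, had a median of 1935 bp. The gap on the emptier side could be very long: the left gap reached 262295 bp and the right gap 368785 bp, and the median of all left and right gaps was 10361 bp. The smaller of both gaps had a median of 7675 bp. It was at least 10 kb for 321 regions and at least 20 kb for 51. Wide domains stood alone less often: 17 of the 723 combined regions of 10 kb and more had such gaps on both sides, 2.35%. Among the regions under 10 kb that the rule could take, the share was 7.16%.

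The scores of the regions nearest the limit overlapped between its sides. Just inside, with smaller gaps of 5009, 5015 and 5015 bp, lay 3R 3499112 to 3500550, 3R 18986308 to 18987672 and 3R 22200772 to 22202690 (positions are 1-based on FlyBase release 5). Their scores were 0.29, 0.33 and 0.39. Just outside, with smaller gaps of 4999, 4999 and 4995 bp, lay 3R 9756012 to 9757122, 3R 16471576 to 16473604 and 3L 11998036 to 11999340, with scores of 0.39, 0.40 and 0.25. None of these 6 regions overlapped a replicate list, but neither did 46.5% of all combined regions under 10 kb and 62.7% of the isolated ones. The score is the authors' value for each region, read as a log2 scale with an unknown zero point, so only differences within a list carry meaning.

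The surroundings were also empty in the replicate lists, which the rule did not read. Within 5 kb of the isolated regions, 0.283% of the bases were covered by replicate 1 and 0.146% by replicate 2. Around other regions weighted to the same widths these values were 15.5% and 15.1%. The combined list takes in nearly all replicate regions, so the near-empty flanks largely follow from the rule. Further out, from 5 to 50 kb, the replicate lists were not bound by the rule to the same degree. There replicate 1 covered 13.1% of the bases near isolated regions against 19.6% near the others, and replicate 2 covered 12.4% against 19.2%. In both replicates the isolated regions thus had fewer marked bases around them than the others from 5 to 50 kb. The gaps that chose them, with a median of 10361 bp, reach into this window. The combined list differed there too, at 32.0% against 46.5%, so the replicate lists give no separate support. The others were matched for width and not for chromosome, and the part of either in the difference was not tested.

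**Figure D1:**
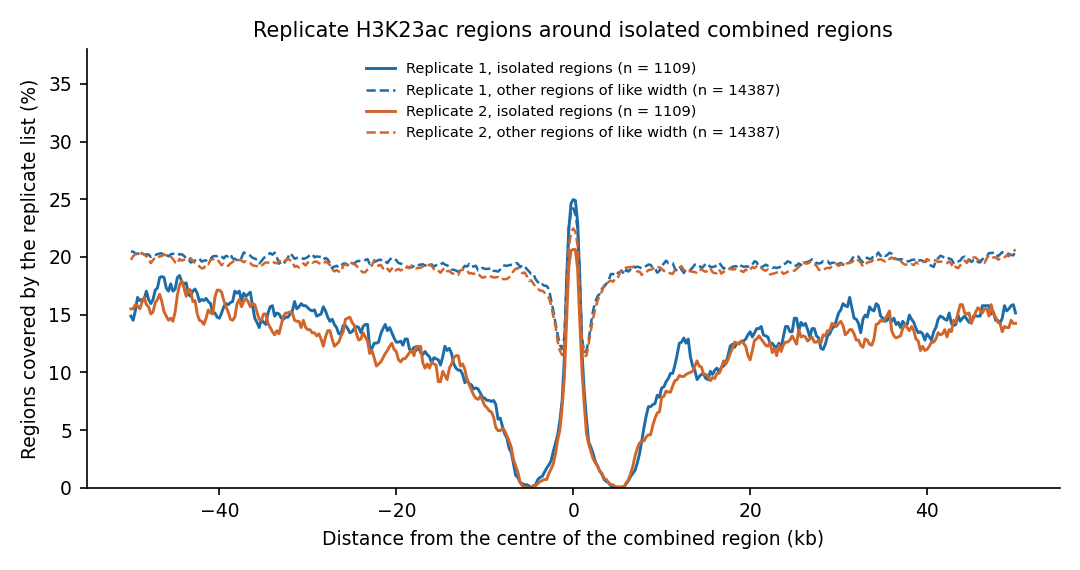
Share of combined regions whose surroundings are covered by each replicate list (y axis, percent) against distance from the region's centre (x axis, kb). Solid lines are the 1109 isolated regions and dashed lines the 14387 other regions under 10 kb weighted to the same widths; at the centre the solid and dashed lines nearly meet, at 25.0% and 24.2% in replicate 1 and 20.6% and 22.5% in replicate 2.

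A few gaps beside isolated regions held replicate regions, counted at any distance within the gap. The distances ran from 78 to 81919 bp in replicate 1 and from 1175 to 31069 bp in replicate 2, so not all lay within 5 kb. Replicate 1 had 17 regions wholly within the gaps of 19 isolated regions, and replicate 2 had 12 within the gaps of 13; these are drawn from the 34 and 35 replicate regions that overlap nothing in the combined list. One example is 2L 4567440 to 4568502, which had the third largest smaller gap. A replicate 1 region of 1311 bp with a score of 0.66 lay 7309 bp from it, at 2L 4575812 to 4577122. That is beyond the 5 kb of the rule.

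The 6 most isolated regions, ranked by the smaller gap, were 1063 to 2173 bp wide, on both sides of the isolated median of 1499 bp. The first was X 15857308 to 15859480, 2173 bp wide, with empty stretches of 123141 and 117521 bp beside it. Replicate 1 covered 89.4% of it with a region scored 0.71, and replicate 2 had none there. Next came 3R 12635564 to 12636960 with gaps of 109339 and 97781 bp, and 2L 4567440 to 4568502 with gaps of 91429 and 90539 bp. Neither overlapped a replicate region. The others were X 22008182 to 22010100, 3L 6182608 to 6184392 and X 16256758 to 16258596, with smaller gaps of 50239, 45551 and 40915 bp. Of these, only the region on 3L overlapped a replicate region: replicate 1 covered 100% of its 1785 bp, although its combined score of 0.27 was the lowest of the 6. Replicate 2 overlapped 0 of the 6. Among all 51 isolated regions with a smaller gap of at least 20 kb, replicate 1 overlapped 29.4% and replicate 2 overlapped 23.5%. These shares were close to those of all isolated regions, 27.8% and 22.7%.

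**Figure D2:**
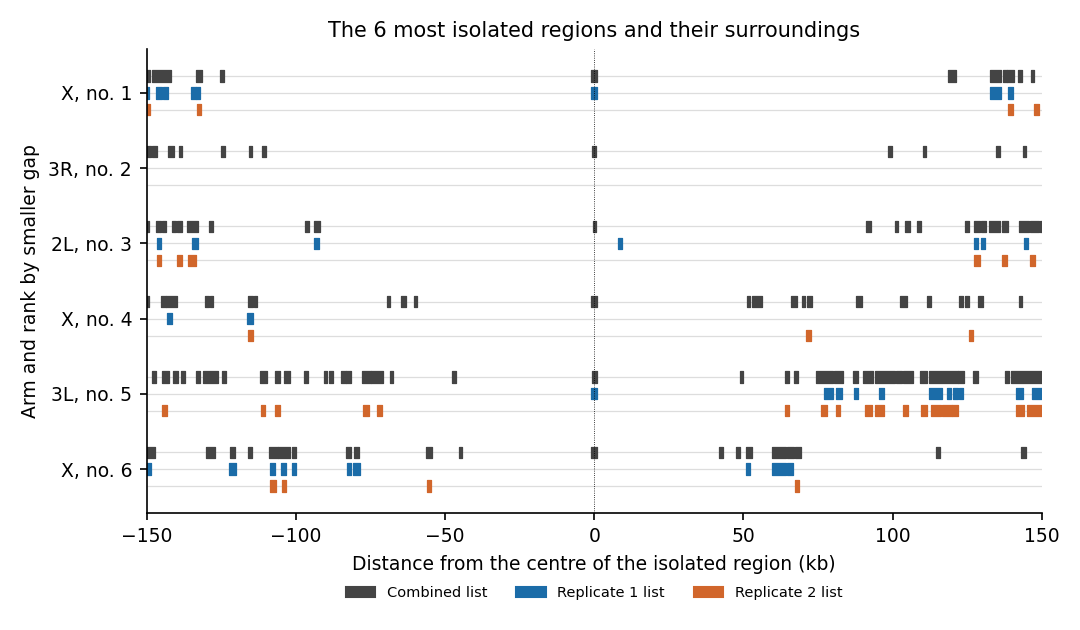
Enriched regions of the combined list and of each replicate list (bars) within 150 kb of the 6 isolated regions with the largest smaller gap; the x axis is the distance in kb from the isolated region's centre. The isolated regions ranked 1 and 5 carry a bar in replicate 1, and none of the 6 carries one in replicate 2.

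Some isolated regions followed one another. This uses the gaps that chose them, and each neighbour of an isolated region has 1 open side by construction, so the counts only describe the regions. Of the 1109 regions, 662 (59.7%) had another isolated region as a direct neighbour, and 37 runs held at least 4 in a row. The longest runs held 9 regions each, and both lay on X. One spanned 214501 bp, from X 142100 to 356600, of which 14295 bp were marked, and replicate 1 overlapped 1 of its 9 regions and replicate 2 overlapped 0. The other spanned 118735 bp, from X 19513476 to 19632210, with 14483 bp marked, and the replicates overlapped 1 and 2 of its regions. Over all 297 isolated regions of X, replicate 1 overlapped 25.3% and replicate 2 overlapped 16.5%. Runs of 9 regions are too short to tell their shares from these. The 1391 neighbours that were not isolated themselves had a median width of 1727 bp, and 66 of them were 10 kb and more.

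The main comparison asked how often an isolated region was also found in the list of a single replicate. Replicate 1 overlapped 308 of the 1109 isolated regions by at least 1 bp, 27.8% (exact binomial 95% interval 25.2 to 30.5, counting over regions only). Replicate 2 overlapped 252, 22.7% (20.3 to 25.3). Among all 15496 combined regions under 10 kb the same share was 40.0% for replicate 1 and 38.1% for replicate 2. On average, 25.2% ± 3.57 (SD, n = 2) of the isolated regions were overlapped, which was 14.9 ± 2.33 percentage points below the other regions when widths were ignored.

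The difference went with width. Other regions weighted to the widths of the isolated ones were overlapped at 27.3% by replicate 1 and 25.6% by replicate 2. Isolated regions differed from them by 0.456 points in replicate 1 and by -2.90 points in replicate 2, a mean of -1.22 ± 2.37 (SD, n = 2). This is smaller than the spread between replicates, and its sign differed between them. With 2 replicates an exact two-sided permutation of signs cannot give a p below 0.5. Regions open on 0, 1 and 2 sides were overlapped by replicate 1 at 43.1%, 36.5% and 27.8% before weighting. After weighting to the widths of the isolated regions the first 2 of these shares became 27.4% and 27.2%. In replicate 2 the shares fell from 41.8% to 33.7% and 22.7% before weighting, and were 26.2%, 24.4% and 22.7% at like width.

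Overlap with the replicates rose with width among the isolated regions and the others alike. Of the 394 isolated regions under 1301 bp, the length of the shortest replicate region, replicate 1 overlapped 2.79% and replicate 2 overlapped 2.28%. Other regions of that length were overlapped at 4.44% and 3.11%. Between 2000 and 3000 bp the shares of the isolated regions were 53.9% and 44.8%, against 51.4% and 49.7% of the others. Among the 45 isolated regions of 5000 bp and more they were 93.3% and 91.1%, against 94.8% and 94.6%. Isolated regions held more of the shortest class: 35.5% of them, against 21.4% of the others, were shorter than any replicate region.

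**Figure D3:**
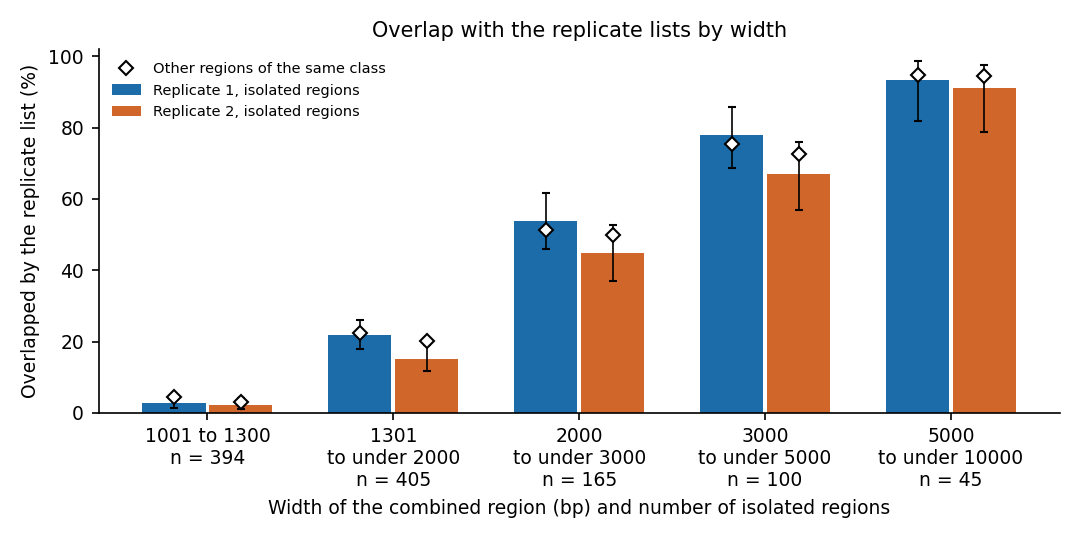
Share of isolated regions overlapped by replicate 1 and replicate 2 (bars, percent; error bars are exact binomial 95% intervals) in 5 classes of combined width (x axis, bp), with the share of other combined regions of the same class as diamonds. The bars rise from 2.79% and 2.28% in the shortest class to 93.3% and 91.1% in the widest, and the diamonds rise with them; in the class from 1301 bp to under 2000 bp the replicate 2 diamond, at 20.2%, stands above the interval of its bar.

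Both replicates together held 146 isolated regions, 13.2% (95% interval 11.2 to 15.3), against 24.6% of all combined regions under 10 kb and 13.4% of the others at like width. Neither replicate held 695, 62.7% (59.7 to 65.5), against 46.5% and 60.5%. A further 162 were in replicate 1 only and 106 in replicate 2 only. The 146 shared regions had a median width of 3586 bp and a median score of 0.47. The 695 in neither had medians of 1261 bp and 0.39, and 53.8% of them were shorter than any replicate region. An isolated region found in replicate 1 was found in replicate 2 in 47.4% of cases, against 13.2% of those not found in replicate 1. The corresponding share among other regions of like width found in replicate 1 was 49.8%. In the opposite direction the share was 57.9%, against 55.1% of the others.

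Where a replicate region met an isolated region, both marked nearly the same place. Replicate 1 regions covered a median of 75.7% of the isolated region they met and replicate 2 regions 74.1%, against 75.0% and 72.2% at other regions of like width. In replicate 1 the centres were a median of 222.25 bp apart, and in replicate 2 a median of 228.75 bp. The replicate region lay wholly inside the combined one in 66.9% and 76.2% of cases, with median widths of 73.7% and 71.6% of it. At 22 isolated regions of replicate 1 and 23 of replicate 2, at least 2 replicate regions met the same combined region. The replicate regions at isolated places scored 0.58 and 0.57 in the median of each list, against 0.56 and 0.56 for other regions of like width in the same list. Across the 146 places found in both lists, the scores of replicates 1 and 2 were correlated (Spearman rho 0.66, Pearson r 0.68). Within the autosomal arms rho was 0.54 over 119 places, and within X it was 0.10 over 27. Across the 3662 other regions found in both lists rho was 0.50, with 0.41 on the autosomal arms and 0.36 on X. These values are across places, which share their libraries and are not independent replicates.

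The widest isolated regions were found in both replicates. They were X 712634 to 722520, 2R 17390394 to 17400244, 2L 8165932 to 8175368, 2R 17375146 to 17384358, 3R 23509166 to 23518204 and 3R 27425564 to 27434360, from 9887 down to 8797 bp wide. Replicate coverage of them was uneven. Over the X region it was 91.8% and 71.5% in replicates 1 and 2, and over 3R 23509166 to 23518204 it was 43.6% and 26.3%. The pair on 2R were direct neighbours, with an empty stretch of 6035 bp between them.

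Of the isolated regions found in both replicates, the highest combined score belonged to the same X region, X 712634 to 722520, at 0.84. Its highest replicate scores were 0.83 and 1.00. It was followed by X 19761936 to 19766610, 4675 bp wide, at 0.83, and by 3R 25702774 to 25708648, 5875 bp wide, at 0.81. Replicate 1 covered 77.9% and 88.4% of these regions, and replicate 2 covered 86.7% and 81.9%. The next were 2R 17184834 to 17192732 at 0.70, 2L 6481562 to 6487034 at 0.69 and X 824142 to 827006 at 0.68. Each of these 6 was covered over at least 63.4% of its length in each replicate.

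The highest scores of all belonged to a different kind of region. Led by 3R 6082438 to 6083438 at 2.41 and 2L 5174572 to 5175582 at 2.18, 7 isolated regions scored at least 1. They were followed by 3L 7674520 to 7675520 at 1.74, 2L 2108566 to 2109602 at 1.65, X 4710448 to 4711448 at 1.41 and 2R 19417008 to 19418050 at 1.21. All 7 were 1001 to 1043 bp wide, and each replicate overlapped 0 of them, which allows a share of up to 41.0% (upper limit of the exact binomial 95% interval). They made up 0.631% of the isolated regions, against 0.168% of all combined regions under 10 kb. These 2 shares are not at like width: 16.6% of the isolated regions but 9.52% of the others were up to 1100 bp wide. Among the other 177 isolated regions up to 1100 bp, whose scores ran from 0.27 to 0.82, replicate 1 overlapped 3 and replicate 2 overlapped 2.

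The scores of these 7 were also coarse. When 2 was raised to the score minus the commonest score in the list, a ratio of whole numbers resulted, as for nearly all regions. For the 7 regions the denominators were at most 80 with a median of 10, such as 21 over 5 for the highest, while the median denominator of the other 177 was 305. The exact score of 4 of the 7 recurred elsewhere in the combined list. Recurrence was not particular to them: the score of 3R 18986308 to 18987672, 0.33, was held by 9 combined regions. The share of recurring scores over all regions was not counted. How many reads lie behind these ratios was not tested, as no read counts were used.

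In the combined list as a whole, isolated regions had about the same median score as other regions of like width once chromosomes were separated. The median was 0.40 for the isolated regions and 0.39 for the others, a difference of 0.010 on the log2 scale. On single arms the sign varied: the difference was 0.0024 for 2L and 0.0011 for 3R, but -0.00085 for 2R, -0.0035 for 3L and -0.00049 for X. Isolated regions were more often on X, where median scores were higher for isolated and other regions alike. The medians on X were 0.48 for isolated regions and 0.48 for the others, and on the pooled long autosomal arms 0.38 and 0.38. With 1 combined list there is no replicate error for these values.

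**Figure D4:**
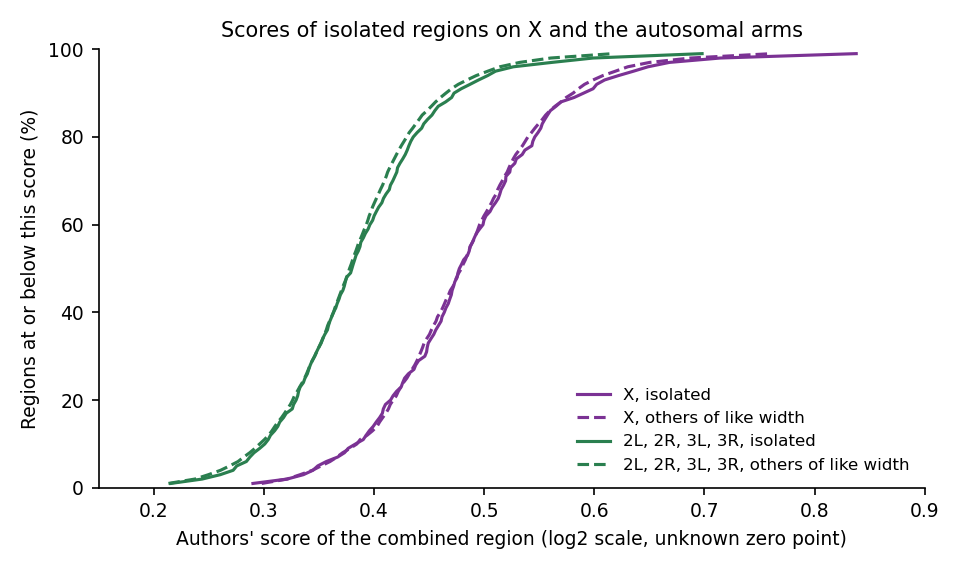
Cumulative share of combined regions (y axis, percent, in steps of 1 from 1 to 99) by the authors' score (x axis, log2 scale with unknown zero point), for isolated regions (solid) and others weighted to the same widths (dashed). The X curves, with medians of 0.48, lie to the right of the autosomal curves, with medians of 0.38, and solid and dashed curves of the same chromosomes lie close together except in the upper tail, where the 99th percentile is 0.84 for isolated regions and 0.76 for the others on X, and 0.70 and 0.62 on the autosomal arms.

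The X chromosome held the most isolated regions for its regions and its length. It had 297, or 13.2 per Mb, and 10.0% of its 2970 regions under 10 kb were isolated (95% interval 8.94 to 11.1). The autosomal arms had 808, or 8.36 per Mb, and 6.47% of 12481 regions (6.05 to 6.92). The ratio of these shares was 1.54. When the rule was applied within each replicate list, 32.2% of X regions and 19.0% of autosomal regions were isolated in replicate 1, and 33.1% and 19.3% in replicate 2. The ratio was 1.71 ± 0.0161 (SD, n = 2), so the difference from equal shares was larger than the spread between replicates. In the combined list, X had about as many regions per Mb as the autosomal arms, 135.0 against 136.2, but 34.6% of its sequence was covered against 45.9%. In the replicate lists it had fewer, 58.9 against 84.2 per Mb in replicate 1 and 52.3 against 82.3 in replicate 2. The part of this density in the ratio was not tested.

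Among the autosomal arms, 2L had 216 isolated regions (7.54% of its regions under 10 kb), 3L had 221 (7.02%), 3R had 226 (5.75%) and 2R had 145 (5.71%). Overlap with the replicates also varied by arm. Replicate 1 overlapped 44.8% of the isolated regions of 2R, above the 36.3% of other 2R regions of like width, while replicate 2 overlapped 34.5% against 35.9%. On the other arms of this length the difference from regions of like width ran from -3.29 to 1.70 points in replicate 1 and from -3.97 to -1.98 points in replicate 2. In replicate 2 all 5 long arms lay below their comparison regions, and in replicate 1 only 2L, 3L and 3R did.

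On the small chromosome 4, which is largely heterochromatic, 4 of 45 regions under 10 kb were isolated. They were 437362 to 440134, 446466 to 448028, 572404 to 575394 and 822472 to 824424, with scores of 0.31, 0.31, 0.38 and 0.33. Replicate 1 overlapped 0 of them. Replicate 2 overlapped only the third, over 52.1% of its length, and that region had an empty stretch of 145761 bp on its right. Other chromosome 4 regions of like width were overlapped at 63.3% by replicate 1 and 68.3% by replicate 2. The exact binomial intervals of the isolated shares were 0 to 60.2% and 0.631 to 80.6%. The others thus lay just above the interval in replicate 1 and inside it in replicate 2. Shares over 4 regions are too coarse to settle a difference.

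Over the 5 long arms pooled, isolated regions were most frequent per Mb away from the ends. The outer 2 Mb on the telomere side held 7.10 per Mb, the middle 9.83 and the outer 2 Mb on the centromere side 6.10. Per Mb the middle was highest on 2L, 3L and 3R only. On 2R the telomere side held 7.5 against 7.35 in the middle, and on X the centromere side held 13.5 against 13.4. As a share of regions under 10 kb the pooled order differed, with 6.45%, 7.10% and 9.47%. The centromere share was 15.9% on 2L, 15% on X and 8% on 2R, but 5.86% on 3R and 1.43% on 3L. The telomere end of 3R had the lowest share on that side, 4 isolated regions of 271, and the centromere end of 3L held 1 of 70. Across 117 full windows of 1 Mb the number of isolated regions had a median of 8 and ranged from 0 to 25. The window with 25 was 3L from 15 to 16 Mb, among 144 combined regions. Isolated regions were missing from 4 windows. The first Mb of 2R and 3L from 23 to 24 Mb held no combined region, and 2L from 22 to 23 Mb held 8. The window of 3R from 26 to 27 Mb held 181 combined regions, none of them isolated.

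A last comparison used the rule within 1 replicate and took the outcome from the other, so that the lists choosing and testing the regions were separate. In replicate 1, 1947 regions were isolated, and replicate 2 overlapped 47.0% of them (95% interval 44.8 to 49.2), against 65.1% of the other replicate 1 regions of like width. In replicate 2, 1892 were isolated, and replicate 1 overlapped 52.2% (49.9 to 54.5), against 66.6%. Over all regions under 10 kb the shares were 67.1% and 69.3%. The difference at like width was -16.2 ± 2.61 percentage points (SD over the 2 directions), larger than that spread and lower in both directions, but an exact permutation of signs cannot reach a p below 0.5 here. It held on each long arm, from -19.3 to -15.0 points for regions isolated in replicate 1 and from -18.1 to -10.6 points for those isolated in replicate 2.

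Local density moved with this difference. The list in which the outcome was read covered 10.7% and 12.2% of the 5 kb on either side of the isolated regions, against 35.3% and 36.1% beside the others, so a region beside others has more marked sequence nearby to meet. When at least 50% of the region had to be covered, the difference was -14.1 ± 3.32 points. The part of local density in the difference was not tested.

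**Figure D5:**
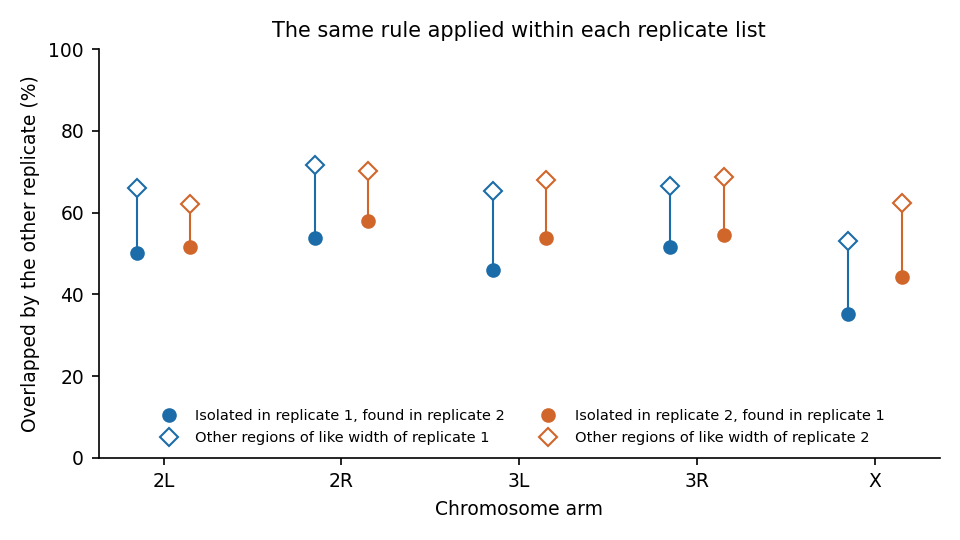
Share of regions of 1 replicate overlapped by the other replicate (y axis, percent) on each long arm (x axis), for regions isolated by the same rule within their own list (filled circles) and other regions of like width from that list (open diamonds), joined by a line. Each circle lies below its diamond on each of the 5 arms, by 10.6 to 19.3 points.

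Most regions that stood alone in a replicate list did not stand alone in the combined list. Of the regions isolated in replicate 1, 281 (14.4%) met an isolated combined region, and of those isolated in replicate 2, 228 (12.1%) did. The same share over all replicate regions was not counted. For scale, the 9467 regions of replicate 1 met 308 isolated combined regions, and the 9142 of replicate 2 met 252. The 7.16% of combined regions that were isolated is a share of another list and no background for these values. Only 33 of the regions isolated in replicate 1 and 24 of those isolated in replicate 2 lay in combined regions of 10 kb and more. Where a region isolated in replicate 1 was found in replicate 2, it was isolated there too in 52.9% of 915 cases, against 21.1% of all replicate 2 regions under 10 kb. In the opposite direction it was in 49.1% of 988 cases, against 20.9% of all replicate 1 regions under 10 kb. With all arms pooled, regions isolated within a replicate scored higher than others of like width in the same list by 0.018 ± 0.0031 (SD, n = 2). The pooled value was 0.0207 in replicate 1 and 0.0163 in replicate 2. Both lay above the value of each long arm in the same list, of which X had the highest, 0.0196 and 0.0161. The weighting matched width and not chromosome, and the part of X in the pooled value was not tested. Within single arms this difference ran from -0.00069 to 0.020, and it was above 0 on each long arm but 2R in replicate 2.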

How the data were processed

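H3K23ac ChIP-seq region lists were analysed for 2 ChIP replicates and for the series. Bowtie 0.12.7 is named in the submitters' processing notes; the sources used here name no peak caller or threshold and do not say how the lists were combined. Coordinates are 1-based on FlyBase release 5, per the file headers. The authors deposited 1 score per region of significant enrichment with no unit named, which was read as log2 values, since 2 to the power of score differences gave ratios of whole numbers (relative tolerance 1e-12) for 99.6% of combined and 100% of replicate regions, and for 0% of 5000 random scores. Only the combined and replicate ChIP lists were used, and the depth is unknown. With release 6 the only gene table, no gene was named and no sequence printed.

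Overlap meant at least 1 bp. Other regions under 10 kb were weighted to the isolated regions' widths, in bins of 250 bp up to 3 kb and 1 kb above; regions first or last on an arm were left out. Named regions were the 6 with the largest smaller gap, the highest score, the largest width and the highest score in both replicates, all on chromosome 4, and the 3 nearest the gap limit on each side. Regions are not independent replicates, so shares were averaged over the replicates (mean ± SD, n = 2), and this spread may be technical. The selection of regions and the comparisons were chosen with earlier results of these data known. Scripts, checked on simulated lists, ran in Python 3.11.15 with numpy 2.4.6, pandas 2.3.3 and scipy 1.17.1.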

Additional observations from a re-analysis of the deposited data

How the results depend on the processing

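The alternatives changed the gap, the width limit, the score range, the shortest width, X, the overlap, the width bins or the replicates, 1 at a time. The number of isolated regions, 1109, was 321 with gaps of at least 10 kb, 2110 with 3 kb, 517 when scores had to exceed the list median and 715 when widths had to reach the shortest replicate width; fewer or more regions qualify by construction. Under the same 4 settings the share in both replicates, 13.2%, was 9.03%, 15.9%, 21.9% and 20.4%, and it was 9.96% under 5 kb wide and 8.30% with at least 50% of the region covered. The mean share overlapped by a replicate, 25.2%, was 20.6% at 10 kb, 32.8% above the median score, 37.8% at the longer minimum and 21.0% with 50% covered, and 22.7% to 27.8% with 1 replicate left out. Its difference from regions of like width moved by less than its SD throughout, from -3.49 to -0.733 points, and was -2.90 and 0.456 with 1 replicate left out, so its sign rests on replicate 2. The score difference of 0.010 was 0.0015 without X and 0.0036 with widths weighted within X and the other chromosomes separately, a setting chosen after seeing the data.

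The X to autosome ratio, 1.54, was 1.77 with gaps of 10 kb, 1.41 with 3 kb, 1.69 above the median score and 1.57 at the longer minimum. In the replicate lists, 1.71 became 2.22, 1.50 and 1.96 in the first 3 and 1.65 under 5 kb wide, and was 1.70 to 1.72 with 1 replicate left out. The difference for regions isolated in 1 replicate, -16.2 points, ranged from -17.9 to -14.1 and was -18.1 and -14.4 in single directions. Of 64 values, 24 moved: beyond the replicate SD, or, for values of the combined list, by over 1.5 times (the count), beyond the binomial interval (the share in both) or beyond the SD of the same measure in the replicate lists. No value that lay beyond its SD changed sign; the longer minimum removes no replicate region. No paired analysis was possible because ChIP and input, the groups that share replicate numbers, were not compared; differences between region classes were taken within each replicate. Where no construction is named, the cause was not tested. With the depth unknown, how many isolated regions a deeper replicate list would hold was not tested.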
